A study of Mus musculus with 30 samples.

Results

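The genes described here are 6 markers of cholangiocytes, the epithelial cells that line the bile ducts: Epcam, Cldn7, Krt7, Krt19, Sox9 and Spp1. They were chosen by symbol. On the mm10 build they lie at chr17:87635979-87651129 (Epcam), chr11:69964779-69967885 (Cldn7), chr15:101411043-101430313 (Krt7), chr11:100140810-100148665 (Krt19), chr11:112782224-112787760 (Sox9) and chr5:104435118-104441050 (Spp1). All 6 were among the 14259 genes in the tables for postnatal day (PND) 1 and PND21, and 5 were among the 13091 genes in the PND42 table, where Cldn7 was not analysed. The liver RNA came from CD-1 mice, an outbred stock, of 30 animals in 8 groups, and the study asked how cadmium exposure during gestation altered the liver after birth. Exposed animals are labelled with cadmium chloride (CdCl2) at 500 ppb, given during gestation by the series title, and the rest as controls. There were 4 exposed and 4 control females at PND1, 3 exposed and 3 control females at PND21, 4 exposed and 4 control females at PND42, and 4 exposed and 4 control males at PND42. Litter membership is not given, so that p-values measure the spread between these livers. The animals' tags begin with numbers that recur between groups, across ages and between the sexes at PND42, and whether they mark a litter is not stated. Of the PND42 controls, 1 female, called unnumbered below, has a column name with the tag of PND21 Control replicate 1, and 3 male controls also carry no replicate number.

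Cholangiocytes and hepatocytes both derive from hepatoblasts, the bipotent cells of the fetal liver. Cells next to the portal vein receive Notch and TGF-beta signals, switch on Sox9 and form the ductal plate, which is remodelled into tubes around the time of birth. Cholangiocytes then make up a small share of the liver, so that their transcripts in whole-liver RNA come from a minority of cells. None of the 6 genes belongs to cholangiocytes alone: hepatoblasts can express Epcam, mesothelial cells of the liver surface make Krt7 and Krt19, some hepatocytes beside the portal tract express Sox9, and macrophages and stellate cells can secrete the Spp1 product. In bulk tissue, fewer cells of a type and less RNA per cell cannot be told apart. Read totals over the listed genes were 22 to 29.6 M per library at PND1 and PND21 and 27.7 to 40.1 M at PND42. Counts of Spp1 ran from 290 to 3744 reads in a library, but counts of Epcam fell to 14 reads, of Krt7 to 10 and of Cldn7 to 6, where counting error is a visible part of the spread.

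Promoter sequence was matched for 4 of the 6 genes in the RefSeq table (build GRCm38.p6). Shown are the 250 bases before the first listed start of the 3 genes whose levels passed a test of exposure or of age in females; all 3 lie on the plus strand, Spp1 at chr5:104434861-104435110, Epcam at chr17:87635729-87635978 and Cldn7 at chr11:69964529-69964778. Capitals mark matches, on either strand, to the motifs searched.
Spp1: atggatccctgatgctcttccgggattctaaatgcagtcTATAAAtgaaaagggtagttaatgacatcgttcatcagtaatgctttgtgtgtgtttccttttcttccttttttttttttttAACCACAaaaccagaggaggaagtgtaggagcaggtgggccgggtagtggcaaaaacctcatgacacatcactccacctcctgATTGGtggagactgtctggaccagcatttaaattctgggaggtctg
Epcam: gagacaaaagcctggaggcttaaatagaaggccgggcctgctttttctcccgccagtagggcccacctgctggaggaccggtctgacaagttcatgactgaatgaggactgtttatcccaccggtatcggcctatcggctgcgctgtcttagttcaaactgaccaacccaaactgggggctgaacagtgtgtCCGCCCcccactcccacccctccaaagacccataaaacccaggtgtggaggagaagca
Cldn7: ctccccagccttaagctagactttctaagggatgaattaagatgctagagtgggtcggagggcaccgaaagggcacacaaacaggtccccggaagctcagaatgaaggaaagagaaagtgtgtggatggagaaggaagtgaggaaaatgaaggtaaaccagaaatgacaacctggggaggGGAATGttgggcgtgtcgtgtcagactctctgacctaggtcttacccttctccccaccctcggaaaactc

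Of 32851 such windows, 12.4% held TATAAA, the core of a TATA box, 33.8% held CCAAT, 32.7% held the GC box GGGCGG, 12.6% held GGAATG, the TEAD motif, and 4.4% held AACCACA, the RUNX motif. The Spp1 window held TATAAA 211 bases before the start, AACCACA at 129 bases and CCAAT, on the minus strand, at 46 bases, with no overlap between them. The Epcam window held 1 GC box, on the minus strand, at 58 bases, and the first Cldn7 window held GGAATG at 70 bases. Krt7, not printed, held 4 GC boxes. GTGGGAA, bound by the Notch partner RBPJ, was in 5.42% of windows and AACAAT, bound by SOX proteins, in 9.42%, and the windows of these 4 genes held neither. These are matches of letters in this window and describe no binding.

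Spp1 had the highest level of the 6 genes per exon length in every group. On the scale of normalised reads per kb of annotated exon, it averaged 210 ± 58.6 in PND42 exposed females and 794 ± 269 in PND42 control females, and 1454 ± 619 in PND42 exposed males and 1079 ± 521 in PND42 control males (SD, n = 4 each). The Spp1 gene encodes osteopontin, a secreted phosphoprotein that binds integrins and CD44. In PND1 control females Epcam came next, at 89.5 ± 27.8, followed by Krt19 (69 ± 58.8), Cldn7 (51.2 ± 13.8), Sox9 (44 ± 14.9) and Krt7 (24.9 ± 32.8), and the ranges of neighbours in that order overlapped. In PND21 control females the order below Spp1 was Sox9 (48.1 ± 14.3), Krt19 (22.5 ± 13.9), Epcam (19.5 ± 8.29), Cldn7 (6.35 ± 2.26) and Krt7 (4.44 ± 1.06). The Sox9 range, 39.2 to 64.6, lay above that of Krt19, 8.22 to 35.8, while Krt19 and Epcam overlapped. In PND42 control females Sox9 (18.6 ± 7.28), Krt19 (18.1 ± 6.68) and Epcam (16.6 ± 4.87) had overlapping ranges, and Krt7 (3.99 ± 1.26) was lower. The exon length of Krt7, 7049 bases, joins all its annotated transcripts and may understate its level per kb.

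**Figure D1:**
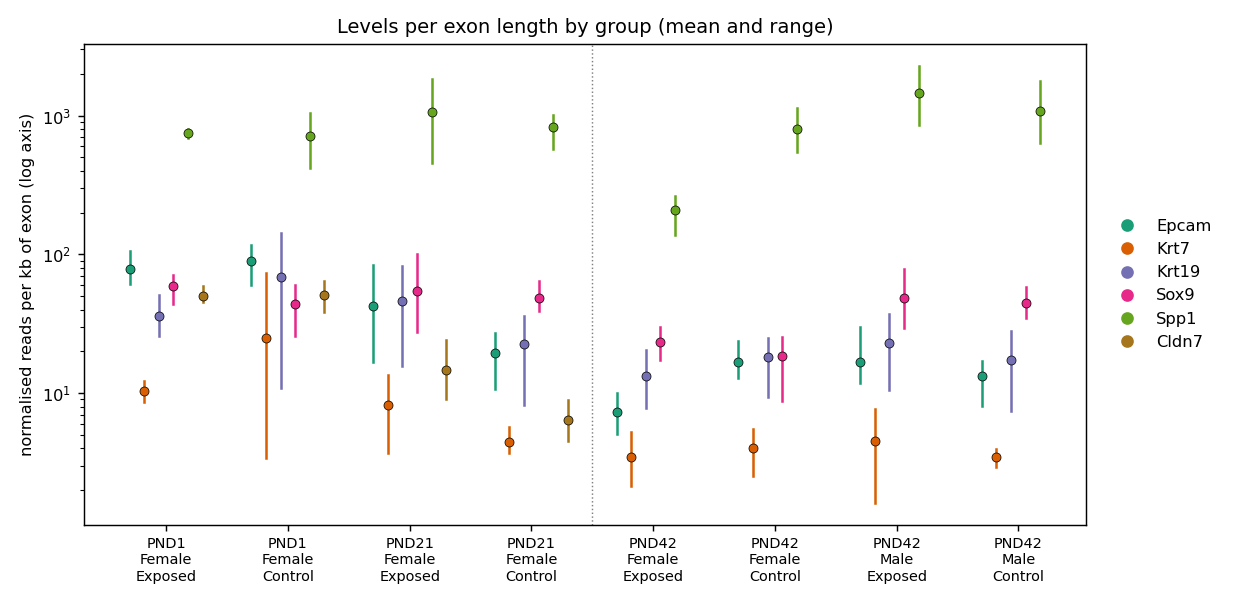
Normalised reads per kb of annotated exon (log axis) for each gene in the 8 groups, with points for the mean and lines from the lowest to the highest library; the dotted line separates the PND1 and PND21 tables from the PND42 table, which was scaled apart. Spp1 is the highest gene in each group, and its range in PND42 exposed females, 138 to 264, lies below its range in PND42 control females, 550 to 1139.

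At PND42, Spp1 and Epcam fell in exposed females, while Krt7, Krt19 and Sox9 did not pass the test. Spp1 had 309.8, 414.4, 227.3 and 434.9 normalised read counts in exposed replicates 1 to 4, against 1877, 906.9 and 1441 in control replicates 2 to 4 and 1010 in the unnumbered control. Every exposed female was below every control female. Spp1 averaged 347 ± 96.6 in exposed and 1309 ± 444 in control females (SD, n = 4 each), a log2 fold change of -1.90 ± 0.35 (SE) or 0.268 times the control level (limma with Benjamini-Hochberg adjustment over all genes tested, adjusted p = 0.000549). It had the 203rd lowest fold change of 13091 genes. Without each library in turn the value lay between -2.05 and -1.71, and the adjusted p was at most 0.00274.

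Epcam encodes an adhesion molecule of epithelial cell surfaces. Its exposed replicates 1 to 4 had 16.02, 11.18, 15.11 and 22.06 normalised read counts, against 51.87, 28.29 and 35.53 in control replicates 2 to 4 and 30.24 in the unnumbered control. The groups did not overlap here either, with 14 to 28 reads behind the exposed values and 32 to 55 behind the control values. Epcam averaged 16.1 ± 4.5 in exposed and 36.5 ± 10.7 in control females (SD, n = 4 each), a log2 fold change of -1.13 ± 0.42 (adjusted p = 0.0382). This call rested on the full set of libraries: it was lost without Exposed replicate 1 (-1.14, adjusted p = 0.064), Exposed replicate 2 (-0.98, 0.106), Exposed replicate 3 (-1.11, 0.0717), Control replicate 2 (-0.95, 0.114), Control replicate 4 (-1.13, 0.0658) or the unnumbered control (-1.20, 0.0533). The direction was lower in exposed females in each of these 6 fits. Scaling by total reads (adjusted p = 0.0531) also ended the call.

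The comparison of PND42 females moved a large share of the transcriptome, and the count of members is to be read against that. Of the 13091 genes tested, 40.2% were called, 18.9% higher and 21.4% lower in exposed females, and 45.9% had groups without overlap. Among the cholangiocyte genes 2 of 5 were called, both lower, and the same 2 had groups without overlap, a share close to the background. Their median log2 fold change was -0.42, against 0.00 for all genes tested. All 6 genes have between 1159 and 12956 bases of annotated intron, and the 4746 genes with 1 to 15 kb of intron had a median of -0.23, with 28.4% called lower. The share of mitochondrial reads was 22.2% to 35.5% in exposed and 5.25% to 12.8% in control females, and the mean log2 level of genes with over 300 kb of intron was 8.76 to 9.12 in exposed and 7.24 to 7.66 in control females. Both measures separated the groups completely, and their part in the lower Spp1 and Epcam levels was not tested.

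The keratins and Sox9 showed how far the remaining genes overlapped. Krt7 and Krt19 encode intermediate filament proteins of simple epithelia that distinguish duct cells from hepatocytes. Krt7 had 21.37, 15.17, 23.74 and 37.03 normalised read counts in exposed replicates 1 to 4, against 26.41, 17.68 and 39.15 in control replicates 2 to 4 and 29.33 in the unnumbered control (log2 fold change -0.22 ± 0.47, adjusted p = 0.743). Krt19 averaged 24.8 ± 10.1 in exposed and 33.6 ± 12.4 in control females (-0.42 ± 0.49, adjusted p = 0.511). Sox9, the transcription factor that marks the first duct cells, had 90.81, 99.01, 71.94 and 123.7 in exposed replicates 1 to 4, against 104.7, 36.24 and 93.54 in control replicates 2 to 4 and 73.31 in the unnumbered control (0.40 ± 0.34, adjusted p = 0.374). Its mean was the only 1 of the 5 that was higher in exposed females, and its groups overlapped.

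**Figure D2:**
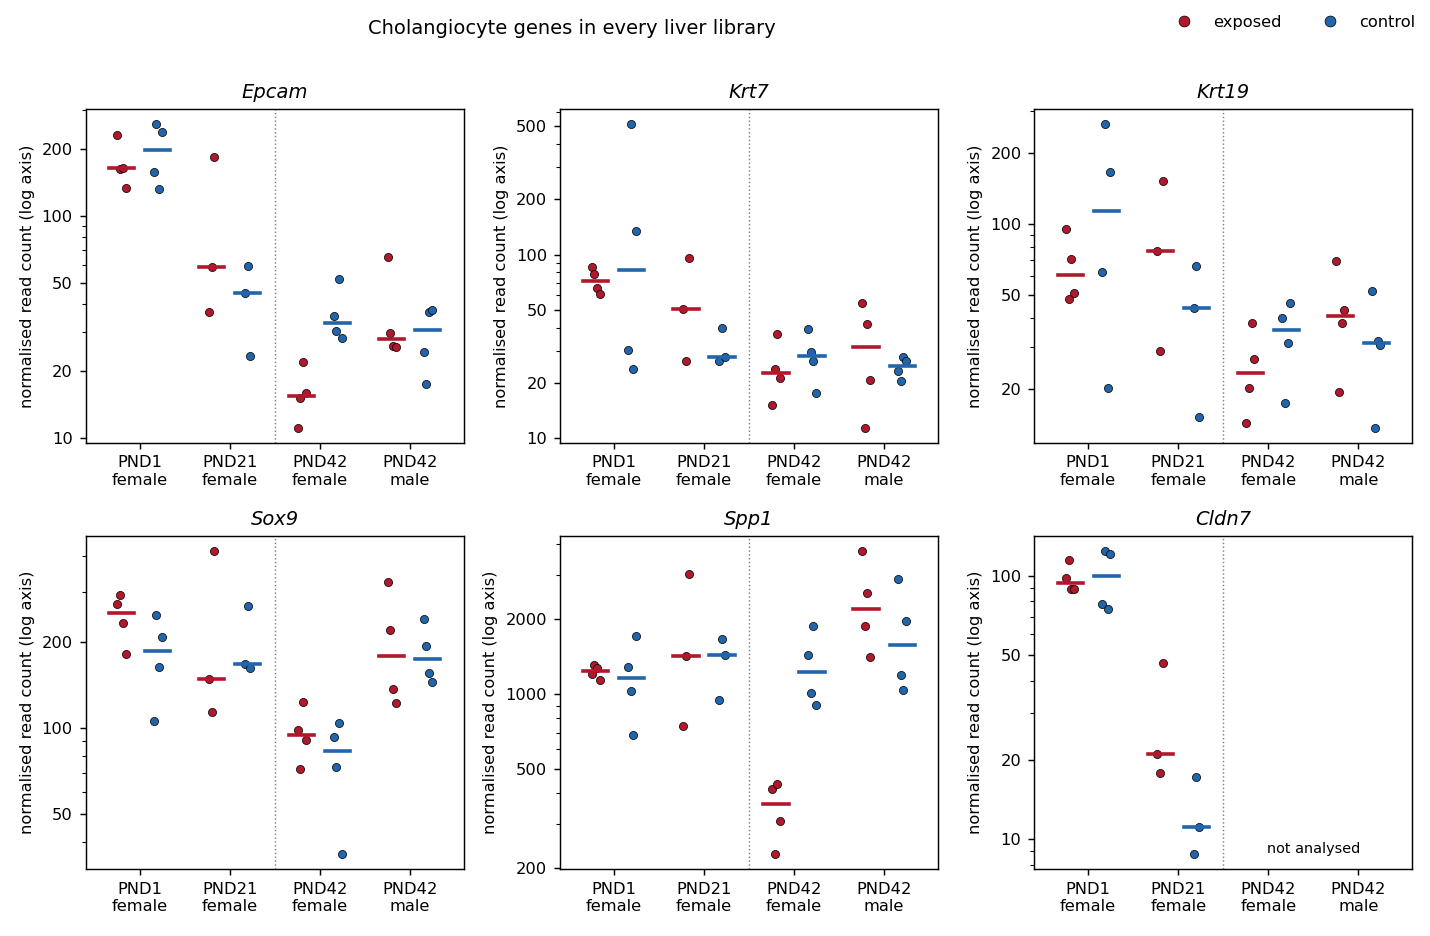
Normalised read counts (log axis) of the 6 genes in each library, exposed left of control at each age and sex, with a point per animal and a line at the group median; PND42 was scaled apart from PND1 and PND21, and Cldn7 was not analysed at PND42. Spp1 lies at 227 to 435 in the 4 PND42 exposed females and at 907 to 1877 in the 4 PND42 control females, and exposed and control points overlap in the other comparisons except for Epcam in PND42 females and Cldn7 at PND21.

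Genes of the biliary lists were called in both directions in PND42 females, where 18.9% of all genes were called higher and 21.4% lower; several of the listed genes are also active in other liver cells. Of 21 other biliary genes tested from a list of 30, 3 were called higher and 7 lower in exposed females, with a median of -0.48. Among those called lower were Aqp1, a water channel of duct cells and of endothelium (464 ± 128 in exposed and 1950 ± 331 in control females, log2 fold change -2.09 ± 0.25, adjusted p = 2.19e-05), and Atp1b1, a subunit of the sodium pump (-1.03 ± 0.20, adjusted p = 0.000742). Of 9 genes for receptors and processing enzymes of osteopontin, 1 was higher and 2 were lower: the integrin subunit Itga9 rose (0.54 ± 0.20, adjusted p = 0.0384), and the integrin subunit Itgb1 (1540 ± 187 in exposed and 3900 ± 418 in control females, -1.34 ± 0.17, adjusted p = 3.11e-05) and F2, the thrombin precursor (-1.18 ± 0.25, adjusted p = 0.00122), fell. Of 12 genes of Notch and TGF-beta signalling, Notch2 (0.48 ± 0.17, adjusted p = 0.0296) and Rbpj (0.51 ± 0.19, adjusted p = 0.0412) rose and the receptor Tgfbr2 fell (-1.21 ± 0.25, adjusted p = 0.00108). Of 12 tight junction genes 2 were higher and 4 lower, with Cldn12 at -1.31 ± 0.27, F11r at -0.76 ± 0.16 and Cldn2 at -1.61 ± 0.35. Of 11 Hippo pathway genes 2 were higher and 1 lower, with the coactivator Wwtr1 at 0.90 ± 0.21, the YAP target Ctgf at -1.60 ± 0.39 and the DNA-binding partner Tead1 at 1.06 ± 0.28.

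Markers of other liver cells moved in the same livers. Of 9 macrophage genes 4 were called lower and 0 higher (median -0.59), with Cd9 at -1.74 ± 0.31 and Lyz2 at -1.74 ± 0.34. Of 14 stellate and matrix genes 6 were lower and 0 higher (median -0.40), with Lum at -1.90 ± 0.26 and Lrat at -1.24 ± 0.25. Of 10 hepatocyte genes 7 were lower and 0 higher (median -0.87), with Ass1 at -1.35 ± 0.32 and Fbp1 at -1.41 ± 0.37. The summed level was 4123 to 6765 normalised read counts in exposed and 6320 to 9817 in control females for the macrophage list, 13140 to 16700 in exposed and 18500 to 25720 in control females for the stellate list, and 38.13 to 101.6 in exposed and 104.5 to 196.2 in control females for the 3 measured of 7 mesothelial genes, of which 0 were called. Of 2 hepatoblast and 5 erythroid genes 0 were called, and Cela1, the 1 exocrine pancreas gene measured of 11, was lower (-1.13). No measured gene of the macrophage, stellate, hepatocyte and mesothelial lists was at 0 in any of the 8 libraries. The lower Spp1 and Epcam levels stood among lower levels of marker genes of several cell types, whose part in them was not tested.

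In PND42 males the 5 genes had higher mean log2 levels in exposed animals and 0 were called. Spp1 had 3761, 1871, 2539 and 1414 normalised read counts in exposed replicates 1 to 4, against 2910 in control replicate 1 and 1188, 1042 and 1971 in the 3 unnumbered controls. The groups overlapped (0.46 ± 0.35, adjusted p = 0.653). Of the 13091 genes, 0% were called in males, with 932 genes at an unadjusted p under 0.05, and 1.73% had groups without overlap, among them 0 of the 5 cholangiocyte genes. None of the 5 had an unadjusted p under 0.05, and limma voom called 0. The log2 fold changes of Krt19 (0.40 ± 0.49), Epcam (0.27 ± 0.42), Krt7 (0.16 ± 0.47) and Sox9 (0.05 ± 0.34) were within 1 SE of 0, with adjusted p between 0.762 and 0.964. Exposed replicate 1 was the highest exposed male for each of the 5 genes, and without it Epcam (-0.04), Krt7 (-0.17) and Sox9 (-0.22) had lower mean log2 levels in exposed than in control males. The same library had 373.7 normalised read counts summed over the 3 mesothelial genes, against 4.57 to 94.07 in the other exposed males, where Upk3b and Gpm6a were listed at 0 in replicate 2, and 62.06 to 289.5 in control males, and the part of these in its keratin levels was not tested. The share of mitochondrial reads was 14.5% to 29.7% in exposed and 9.03% to 24.8% in control males, so that the ranges overlapped as they did not in females.

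The log2 fold change of Spp1 with exposure differed between the sexes. The log2 fold change in females minus that in males was -2.36 ± 0.49 (limma interaction term, adjusted p = 0.0119), among 7.91% of 13091 genes that were called for this difference, 3.84% in the higher and 4.07% in the lower direction. That count of 1036 genes depended on single libraries: it was 492 to 642 without Female Exposed replicate 1, 2 or 3, Female Control replicate 3, Male Exposed replicate 3 or 4 or Male Control replicate 1, and 1929 without unnumbered male c. By total reads it was 779, with 228 higher and 551 lower, against 503 and 533 as deposited. Spp1 was the 1 of 5 cholangiocyte genes called, and its difference was the 81st lowest of all genes. It stayed called without each of the 16 libraries in turn, at -2.63 to -2.11 and an adjusted p of at most 0.031. The differences of Epcam (-1.40 ± 0.59, adjusted p = 0.147), Krt19 (-0.83 ± 0.69, 0.481), Krt7 (-0.37 ± 0.67, 0.766) and Sox9 (0.35 ± 0.49, 0.696) did not pass. Of 21 other biliary genes 5 were called lower in this difference and 0 higher, led by Aqp1 (-1.65 ± 0.36, adjusted p = 0.0134), Cd24a, a surface glycoprotein of duct and blood cells (-2.82 ± 0.64, 0.0157), and Atp1b1 (-1.23 ± 0.28, 0.0162). Itgb1 was called as well (-1.09 ± 0.24, adjusted p = 0.0143). The share of mitochondrial reads and the mean log2 level of genes with over 300 kb of intron separated the groups completely in females. Both overlapped in males, where the second was 7.688 to 8.445 in exposed and 7.182 to 8.157 in control animals. Their part in the sex difference of Spp1 was not tested.

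**Figure D3:**
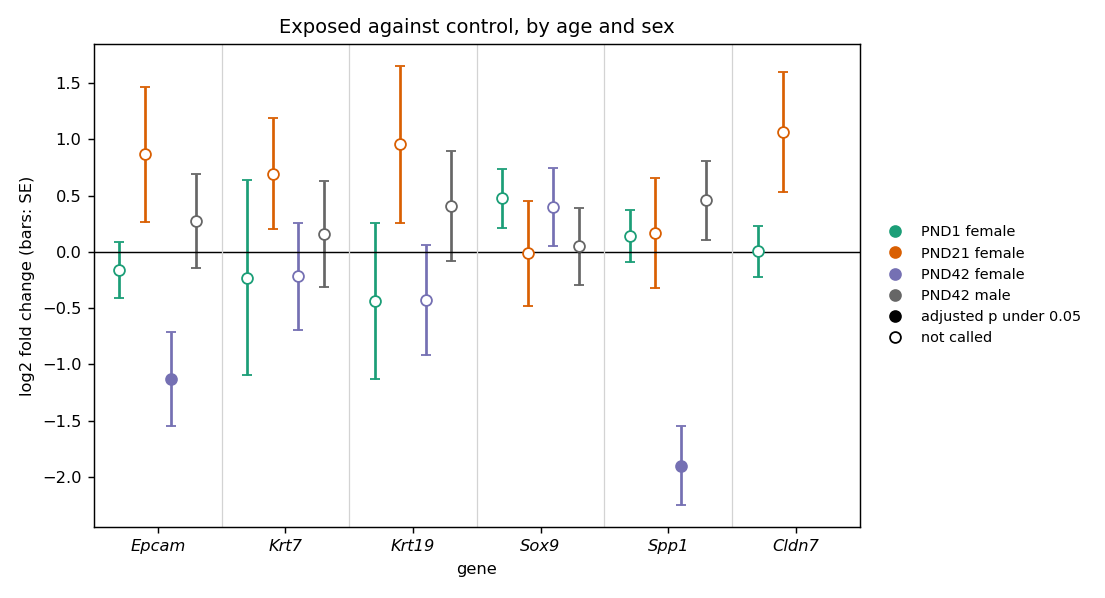
Log2 fold change of exposed over control (points, with bars of 1 SE) for each gene at PND1, PND21 and PND42 in females and at PND42 in males, where filled points have an adjusted p under 0.05. The filled points are Epcam (-1.13) and Spp1 (-1.90) in PND42 females, and Cldn7 has no PND42 value.

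Among unexposed PND42 animals, Sox9 was higher in males than in females, a comparison added after the values were seen. The control males had 240.5 normalised read counts in replicate 1 and 193.6, 156.2 and 144.8 in the unnumbered libraries, against 104.7, 36.24 and 93.54 in female control replicates 2 to 4 and 73.31 in the unnumbered female. Every male was above every female, with means of 184 ± 43.2 in males and 76.9 ± 30.1 in females (SD, n = 4 each) and a log2 fold change of 1.32 ± 0.34 (adjusted p = 0.0283). In this comparison 6.93% of 13091 genes were called, 4.58% higher and 2.35% lower in males, and 12.4% had groups without overlap, and Sox9 was the 1 of 5 in both counts. The 907 genes called became 371 to 496 without Male Control replicate 1, Female Control replicate 3, the unnumbered female or unnumbered male b, and 1979 without unnumbered male a. By total reads 2110 were called, 235 higher and 1875 lower in males, against 600 and 307 as deposited. The call was lost without Male Control replicate 1 (1.18, adjusted p = 0.0863), Female Control replicate 3 (1.00, 0.105), the unnumbered female (1.33, 0.0677) or unnumbered male b (1.39, 0.061), and with scaling by total reads (0.96, 0.074), which moved the median of all genes to -0.38. Spp1 (0.38 ± 0.35), Krt19 (-0.13 ± 0.49), Krt7 (-0.15 ± 0.47) and Epcam (-0.33 ± 0.42) did not pass, with adjusted p from 0.557 to 0.913. Of 21 other biliary genes the stem cell surface protein Prom1 was called, and it was lower in males, at 1.39 to 29.1 in males and 100.8 to 191.8 in females (-4.21 ± 0.57, adjusted p = 0.000189). The macrophage list had 5 of 9 genes called lower in males, with summed levels of 3716 to 4705 in males and 6320 to 9817 in females.

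Between PND1 and PND21, Cldn7 and Epcam fell in control females, and the other 4 genes did not pass the test. Cldn7, a claudin of epithelial tight junctions that can associate with the Epcam protein in the membrane, had 8.753, 17.28 and 11.08 normalised read counts in PND21 control replicates 1 to 3, against 78.4, 124.4, 74.55 and 121.5 in PND1 control replicates 1 to 4. The ages did not overlap, with 6 to 13 reads behind each PND21 value. Cldn7 averaged 12.4 ± 4.41 at PND21 (n = 3) and 99.7 ± 26.9 at PND1 (n = 4), a log2 fold change of -2.92 ± 0.36 or 0.132 times the PND1 level (adjusted p = 9.73e-05). Epcam had 45.22, 59.81 and 23.55 in PND21 control replicates 1 to 3, against 157.7, 258.1, 131.9 and 238.0 in PND1 control replicates 1 to 4, again without overlap (-2.21 ± 0.36, 0.216 times, adjusted p = 0.000597). Both calls held without each library in turn, with Cldn7 at -3.17 to -2.72 and Epcam at -2.5 to -1.84. Much of the transcriptome moved with age: 52.9% of 14233 genes were called, 26.9% lower and 26% higher, and 55.3% had ages without overlap. With scaling by total reads 8307 genes were called, 1721 higher and 6586 lower at PND21, against 3701 higher and 3826 lower as deposited. The 2 of 6 cholangiocyte genes called lower are a share near that background.

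The other 4 genes spanned a wide range. Spp1 had 946.8, 1671 and 1439 normalised read counts in PND21 control replicates 1 to 3, against 1288, 1027, 685.3 and 1710 in PND1 control replicates 1 to 4 (0.24 ± 0.30, adjusted p = 0.536), and Sox9 had 167.8, 267.2 and 162.0 at PND21, against 105.8, 249.7, 163.4 and 208.5 at PND1 (0.16 ± 0.31, adjusted p = 0.688). The direction of both turned when libraries were scaled by total reads, which set Spp1 at -0.28 and Sox9 at -0.35 and moved the median of all genes to -0.50. Krt7 had 26.26, 39.87 and 27.7 at PND21, against 30.23, 513.7, 23.89 and 134.6 at PND1 (-1.43 ± 0.97, adjusted p = 0.246), and Krt19 had 43.76, 66.46 and 15.24 at PND21, against 62.34, 264.0, 20.07 and 165.0 at PND1 (-1.26 ± 0.86, adjusted p = 0.249). Both keratins were low in PND1 control replicate 3 and high in replicates 2 and 4, and the ages overlapped. Without PND1 Control replicate 3, Krt19 was called (-1.94, adjusted p = 0.0342).

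Exposed females showed the same order of ages for Cldn7, in a comparison added after the values were seen. Cldn7 had 21.08, 17.76 and 46.67 normalised read counts in PND21 exposed replicates 1 to 3, against 98.37, 115.1, 89.39 and 88.9 in PND1 exposed replicates 1 to 4 (-1.86 ± 0.34, adjusted p = 0.00186), and the ages did not overlap. Epcam had 36.88, 58.89 and 183.1 at PND21, against 230.7, 162.2, 164.6 and 133.3 at PND1, with PND21 replicate 3 inside the PND1 range (-1.19 ± 0.48, adjusted p = 0.0723). Epcam was called with scaling by total reads (-1.52, adjusted p = 0.0244), limma voom (-1.27, 0.0418) and all 14 libraries in 1 fit (-1.19, 0.0452). In exposed females 46.6% of 14223 genes were called, 24.2% lower, and 50.5% had ages without overlap (by total reads 1797 genes were called higher and 5300 lower, against 3198 and 3436 as deposited), while 1 of 6 cholangiocyte genes was called and had no overlap. Without PND21 Exposed replicate 3, 4 of the 6 were called, all lower: Cldn7 (-2.27), Epcam (-1.84, adjusted p = 0.000788), Krt7 (-0.97, 0.0359) and Sox9 (-0.89, 0.0129). That library was the highest PND21 exposed liver for each of the 6 genes, so that leaving it out lowers their PND21 level. Over all genes, 5539 to 7098 were called in the 7 fits that each left out 1 library. The difference in the exposure effect between PND21 and PND1 was called for 0 of the 6 genes and for 0.014% of 14259 genes, with Cldn7 at 1.06 ± 0.49 (adjusted p = 0.549) and Epcam at 1.02 ± 0.65 (0.649). The comparisons of age and of exposure share libraries, and their values are given side by side only.

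**Figure D4:**
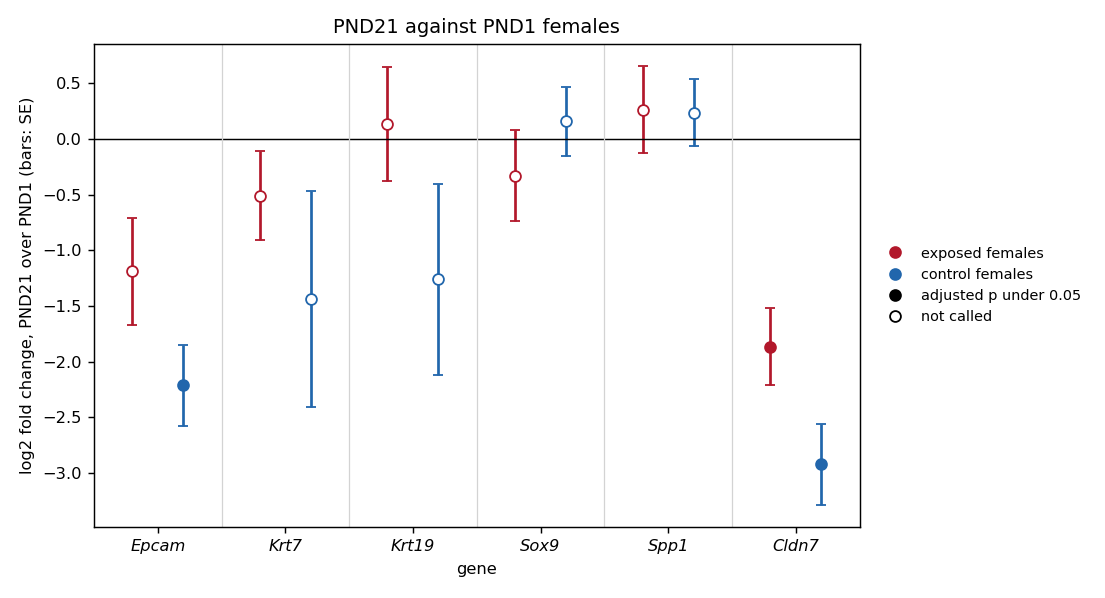
Log2 fold change of PND21 over PND1 (points, with bars of 1 SE) for each gene in exposed and in control females, where filled points have an adjusted p under 0.05. Cldn7 is filled in both (-1.86 in exposed and -2.92 in control females) and Epcam in control females (-2.21) but not in exposed females (-1.19); Spp1 and Sox9 lie near 0.

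The biliary lists also held genes called in both directions with age in control females, where 26% of all genes were called higher and 26.9% lower. Of 27 other biliary genes tested, 7 were higher and 11 lower at PND21 (median -0.38, against 0.01 for all genes). The 3 of lowest p were the enzyme Ggt1 (9.25 ± 2.81 at PND21 and 640 ± 90 at PND1, -5.99 ± 0.25, adjusted p = 8.3e-08), Cd24a (141 ± 53.3 at PND21 and 9800 ± 3180 at PND1, -6.12 ± 0.35, adjusted p = 1.48e-06) and the keratin Krt23 (-3.81 ± 0.27, adjusted p = 2.67e-06). Of 15 genes of Notch and TGF-beta signalling, 8 were lower and 1 higher, among them the ligand Tgfb1 (225 ± 55.4 at PND21 and 1290 ± 129 at PND1, -2.54 ± 0.18), the Notch ligand Jag2 (-2.59 ± 0.46) and the receptor Tgfbr2 (-0.96 ± 0.18). Of 12 tight junction genes 1 was higher and 3 lower: Cldn1 fell (-2.20 ± 0.21) as did Marveld2 (-1.05 ± 0.16), and Tjp3 rose (2.39 ± 0.43). Of 9 osteopontin partners 3 were lower and 0 higher, namely the integrin subunits Itgb3 (-3.57 ± 0.16) and Itga4 (-3.92 ± 0.20) and the receptor Cd44 (-0.59 ± 0.21). Of 12 Hippo genes 2 were higher, Nf2 (0.73 ± 0.14) and Lats1 (0.72 ± 0.15), and Tead2 was lower (-3.46 ± 0.22).

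Marker genes of other cell types of the newborn liver differed in level over the same interval. All 5 hepatoblast genes fell (median -7.97), with Igf2 at -8.22 ± 0.22 and H19 at -7.59 ± 0.23, and all 8 measured erythroid genes fell (median -3.73), with Slc4a1 at -6.39 ± 0.29. Of 10 hepatocyte genes 9 rose and 1 fell, with Tat at 2.77 ± 0.42 and Cps1 at 1.84 ± 0.31, and of 10 macrophage genes 7 fell and 0 rose, with Lyz2 at -3.94 ± 0.21 and Cd9 at -2.15 ± 0.22. Summed over the list, hepatoblast genes were at 2864 to 3546 normalised read counts at PND21 and 595200 to 890500 at PND1. The part of hepatoblasts, blood-forming cells or macrophages in the lower Cldn7 and Epcam levels was not tested.

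At PND21 the mean log2 level of 5 of the 6 genes was higher in exposed than in control females, and none of these differences passed the test. Cldn7 was the 1 of 6 genes whose groups did not overlap, at 21.08, 17.76 and 46.67 normalised read counts in exposed replicates 1 to 3, against 8.753, 17.28 and 11.08 in control replicates 1 to 3. The lowest exposed value was 17.76 and the highest control value 17.28, and 16.6% of 13886 genes had groups without overlap in this comparison. Its log2 fold change was 1.07 ± 0.53 (adjusted p = 0.538), with 19 to 39 reads in exposed and 6 to 13 in control females. Krt19 (0.96 ± 0.70), Epcam (0.87 ± 0.60), Krt7 (0.69 ± 0.49) and Spp1 (0.17 ± 0.49) also had higher mean log2 levels, with adjusted p from 0.627 to 0.924. Sox9 was at -0.01 ± 0.47, although its mean count was 226.8 in exposed and 199 in control females, and it was at 0.016 with scaling by a trimmed mean and at 0.22 by total reads. The members' median was 0.78, against -0.01 for all genes, with 0 of 6 called by limma or limma voom, 0 at an unadjusted p under 0.05, and 0.036% of all genes called (0.0288% higher and 0.0072% lower). The authors' deposited table does not name its direction. In it the log2 fold change of Cldn7 at PND21 was 1.18, with an unadjusted p of 0.0122 and an adjusted p of 0.147. That of Epcam was 1.11, with an unadjusted p of 0.0283 and an adjusted p of 0.218. For the other members the authors' unadjusted p ran from 0.16 to 0.668. Mean counts were 28.5 in exposed and 12.4 in control females for Cldn7, and 93 and 42.9 for Epcam, so that the sign is that of exposed over control.

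A single exposed liver was high for the whole set. Exposed replicate 3 was the highest of the 6 PND21 livers for every one of the 6 genes, with Spp1 at 3043, Sox9 at 417.7, Epcam at 183.1, Krt7 at 95.74 and Cldn7 at 46.67 normalised read counts. Without it Cldn7 had a log2 fold change of 0.66, Epcam of 0.22 and Spp1 of -0.35. The same comparison had medians of 0.57 for 15 Notch and TGF-beta genes, 0.69 for 14 stellate and matrix genes and 0.78 for 5 mesothelial genes, with 0 called in each list. In that order 5, 6 and 1 of them had an unadjusted limma p under 0.05, against 9.57% of all genes and 0 of the 6 members. The stellate list summed to 36360 to 65480 normalised read counts in exposed and 28310 to 35470 in control females, and the mesothelial list to 114 to 278.8 in exposed and 66.48 to 131.6 in control females. The mesothelial sum was highest in exposed replicate 3 (278.8). Its mean log2 level was highest in exposed replicate 1 (5.571, against 5.111 in replicate 3). The 5 hepatoblast genes summed to 16560 in exposed replicate 3, against 2600 and 5726 in the other exposed females and 2864 to 3546 in control females. Their part in the members' levels was not tested.

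At PND1 none of the 6 genes differed between exposed and control females beyond the spread of the livers. Spp1 had 1210, 1312, 1268 and 1144 normalised read counts in exposed replicates 1 to 4, against 1288, 1027, 685.3 and 1710 in control replicates 1 to 4 (0.14 ± 0.23, adjusted p = 0.801). The exposed livers were closely grouped and lay inside the control range. Sox9 had 272.3, 293.9, 233.9 and 181.4 in exposed replicates 1 to 4, against 105.8, 249.7, 163.4 and 208.5 in control replicates 1 to 4, with overlapping groups (0.48 ± 0.26, adjusted p = 0.42). Epcam (-0.16 ± 0.25), Cldn7 (0.01 ± 0.23), Krt7 (-0.23 ± 0.87) and Krt19 (-0.44 ± 0.69) had adjusted p from 0.792 to 0.994. In this comparison 0% of 14059 genes were called, with 2039 at an unadjusted p under 0.05, and 7.76% had groups without overlap, among them 0 of the 6 genes. Limma and limma voom called 0 of the 6, and 0 had an unadjusted p under 0.05. The direction for the keratins rested on Control replicate 2, without which Krt7 was at 0.63 and Krt19 at 0.10. The authors' deposited table gave Krt7 a log2 fold change of -1.27 and Krt19 of -0.95 at PND1, and listed no adjusted p for either. The values of -0.23 and -0.44 above are differences of mean log2 levels. On mean normalised read counts, Krt7 was at 72.8 in exposed and 175.6 in control females, and Krt19 at 66.2 and 127.9.

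The spread of the keratins among newborn controls was wide compared with other genes. Krt7 had 30.23, 513.7, 23.89 and 134.6 normalised read counts in PND1 control replicates 1 to 4, and its SD on the log2 scale was 2.04, above that of 99.3% of the 14259 genes, whose median SD was 0.268. The SD of Krt19 in the same group was 1.62, above that of 98.7% of genes, while Cldn7 (0.393), Epcam (0.463), Sox9 (0.533) and Spp1 (0.557) were above 72.3% to 85.6% of genes. In PND1 exposed females the SD of Krt7 was 0.225 and that of Spp1 was 0.086, with 9.9% of genes below Spp1. The mesothelial list was also high in newborn control replicates 2 and 4, with a sum of 80.29, 1108, 118.5 and 738.7 normalised read counts in replicates 1 to 4, against 167.6 to 385.1 in the exposed newborns. Msln, a defining mesothelial gene, spanned 20.78 to 528.9 in the newborn controls and 32.56 to 82.71 in the exposed newborns, and was at 0 in no PND1 library. The stellate and matrix list was ordered in a like way in the newborn controls, at 15370, 35840, 16040 and 39530 in replicates 1 to 4, against 19490 to 29080 in the exposed newborns. The part of either cell type in these keratin levels was not tested.

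**Figure D5:**
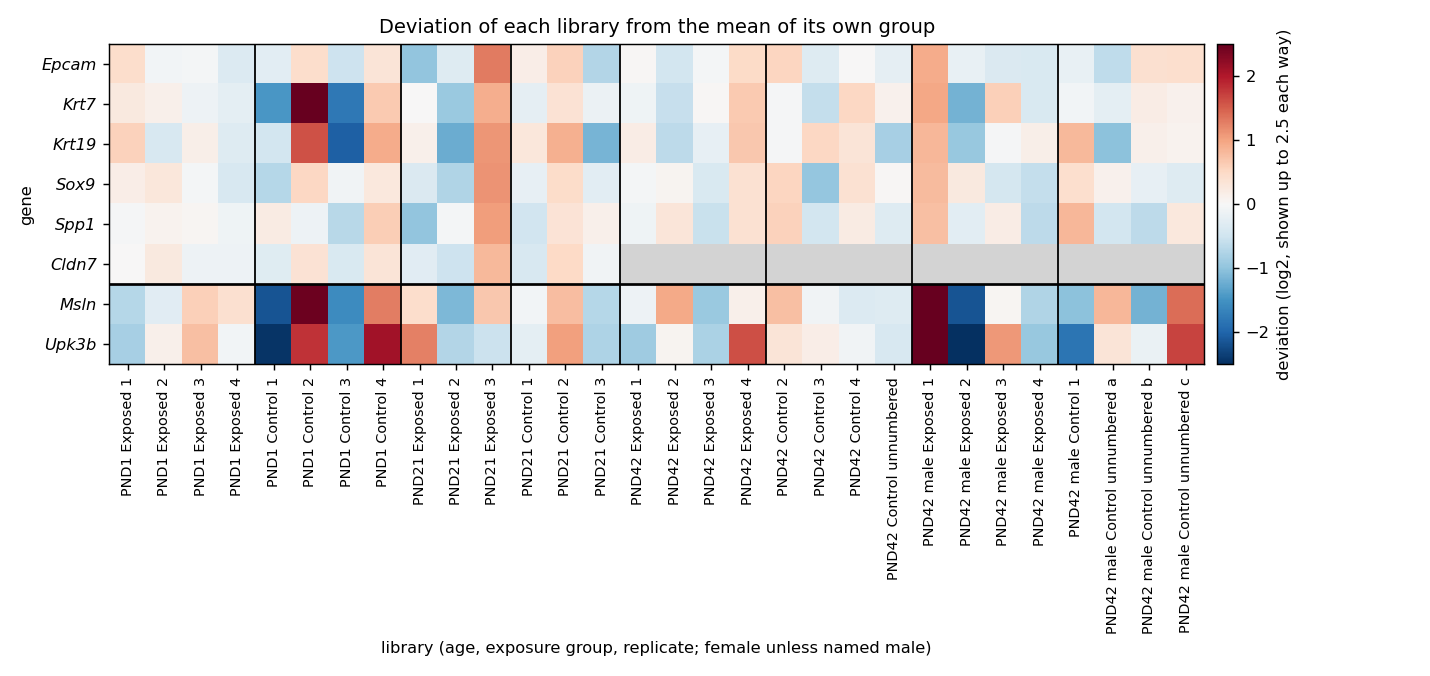
Deviation of each library from the mean of its own group (log2, colour) for the 6 genes and, below the black line, the mesothelial genes Msln and Upk3b; grey cells were not analysed. PND21 Exposed replicate 3 and PND42 male Exposed replicate 1 are high for every cholangiocyte gene measured, and PND1 Control replicate 2 is high for Krt7 and Krt19, with a mean deviation over the members of 0.90, against 1.05 and 0.85 in the other 2 libraries.

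Within groups the 6 genes varied together to differing degrees. Over the 14 PND1 and PND21 libraries, each gene centred on its own group, Pearson r between pairs of the genes ran from 0.326 for Krt7 and Spp1 to 0.92 for Sox9 and Cldn7. Over the 16 PND42 libraries it ran from 0.0912 for Krt19 and Sox9 to 0.692 for Sox9 and Spp1. Each pair takes both genes from the same libraries, so that depth and tissue composition are shared. The 8 other genes most like the mean of the 6 across the 14 libraries, of 13715 genes, were Tcaf1 (r = 0.939), Fam198b (0.936), Fbn2 (0.929), Vim (0.922), Dcn (0.918), Sfxn3 (0.915), Sh3bp4 (0.913) and Adamts2 (0.911). For single genes the likest were Cav1 for Krt7 (0.97), Twsg1 for Spp1 (0.961), Dcn for Sox9 (0.958), Slco2a1 for Cldn7 (0.951), Ace for Krt19 (0.944) and Dlat for Epcam (0.937). Across the 16 PND42 libraries and 5 genes, a set the rule for likeness did not cover, the highest were Srgn (0.909), Tfe3 (0.865) and Mphosph6 (0.858).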

How the data were processed

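Liver RNA-seq was deposited as 3 tables. Per the submitters' processing notes, FastQC, STAR and featureCounts were used with the mm10 build; their versions were not given in the sources used here. Deposited values are log2 of the normalised count plus 1 per gene and library. PND1 and PND21 were scaled together by the authors over 14 libraries and PND42 apart over 16, so levels are compared within each scaling only. Whole reads were recovered from all values within 0.1. The authors also deposited a mean normalised count (a signal), log2 fold changes, a test score and p-values. A few of these fold changes and p-values are quoted.

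Genes that reached 10 normalised counts in a number of libraries equal to the smaller group or above were tested with limma 3.58.1 in R 4.3.3 (intensity trend, robust empirical Bayes, two-sided), on the deposited log2 values with their pseudocount of 1, which understates changes of low genes. P-values were adjusted by Benjamini-Hochberg over all genes tested, with a threshold of 0.05. PND42 was fitted over 16 libraries, the other comparisons within their own groups. The age comparison in exposed females and the comparison of control sexes were added after the data were seen. Comparisons share groups, controls included. The test was checked on simulated data with the same spread setting for every gene and, for PND42 females, with the female libraries alone. That check does not cover genes as variable as the keratins in the newborn controls.

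Alternatives were another scaling, no filter, a pseudocount of 5, limma voom on the recovered reads, a replicate block, other sample sets and leaving out each library. Exon and intron lengths came from GENCODE vM21, which held 14238 of 14259 and 13071 of 13091 gene IDs. Named were all 6 genes, up to 3 genes of lowest p from each pathway list, up to 2 from each list of other cell types, and the genes most like the members. Of the genes this rule names, 2 are not reported here. Members and lists were chosen with earlier results of these data known.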

Additional observations from a re-analysis of the deposited data

Results flagged for a closer look

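Epcam in PND42 Male Exposed replicate 1 had 65.29 normalised read counts and stood apart from the other 3 exposed males, at 29.7, 26.13 and 25.87. On the log2 scale, the gap to the nearest was 0.853 of the group's range. It was the 1 flagged of 32 groups of 4 examined, and chance flags about 1 in 20. Without this library the log2 fold change of Epcam in males was -0.04.

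The log2 fold change of Spp1 with exposure differed between the sexes at PND42. The value in females minus that in males was -2.36 (limma interaction term, adjusted p = 0.0119). All 4 exposed females were below all 4 control females, while the male groups overlapped. Of 13091 genes, 45.9% had groups without overlap in females and 1.73% in males, and 7.91% were called for the interaction. The share of mitochondrial reads also separated the female groups and overlapped in males, and its part in this difference was not tested.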

How the results depend on the processing

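Of the values for single genes, 301 kept their direction and side of the threshold under alternatives other than leaving out 1 library. In these alternatives 6 reversed, 3 were lost and 3 were gained. Among them, the fits of 1 sex and of the replicate block in PND42 females used fewer libraries than the main fit. Without 1 library the numbers, in the same order, were 406, 32, 10 and 4. With scaling by total reads the median over all genes was -0.50 (age, controls), -0.33 (age, exposed), -0.38 (control sexes) and 0.23 (PND21). In PND42 females 1 of 5 genes was called in place of 2 with scaling by total reads, and 1 to 2 without 1 library. Of all genes, 4726 (36.1%) were called there by total reads and 4234 to 4894 without 1 library. In the age comparison 2 to 3 of the 6 genes were called in controls without 1 library, where 6259 to 7320 of all genes were called. In exposed females 1 to 4 of the 6 were called without 1 library, among 5539 to 7098 of all genes. There 2 were called with total reads, limma voom or all 14 libraries in 1 fit, among 49.9%, 46.4% and 46.9% of all genes. Over all genes, 5 called at PND21 became 0 to 14 without 1 library (14 without Exposed replicate 3), 2 with limma voom, 8 with the replicate block and 50 with all 14 libraries in 1 fit; 0 called became at most 5 at PND1 and 27 in PND42 males without 1 library, and 2 called for the difference between ages became 2 to 12 without 1 library, 4 by total reads and 0 with limma voom. Between control sexes 0 of the 5 cholangiocyte genes were called with total reads and 0 to 1 without 1 library. Over all genes, 2110 were called there with total reads and 371 to 1979 without 1 library.

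The replicate numbers were not found to pair the samples: correlations of same-numbered libraries ran from -0.0818 to 0.215. In PND42 females the replicate block could use replicates 2 to 4 only. With it 1 of the 5 cholangiocyte genes was called, Spp1 (-1.97, adjusted p = 0.00244), and Epcam was at -1.22 (0.107). The same fit called 4987 genes in all (38.2%), 2637 of them lower. Fewer libraries than in the main fit were used, and the effect of the block alone was not tested. No paired analysis was possible because of missing replicate numbers in PND42 males, nor for the comparison of control sexes.

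Scaling reversed Sox9 at PND21 (0.016 by trimmed means, 0.22 by total reads), and by total reads Sox9 (-0.35) and Spp1 (-0.28) with age in controls and Krt19 (-0.19) and Spp1 (-0.067) with age in exposed females. Without 1 library, direction turned at PND1 for Krt7 (-0.83 to 0.63), Krt19 (-1.12 to 0.10), Spp1 (-0.091 to 0.35) and Cldn7 (-0.12 to 0.12), at PND21 for Sox9 (-0.57 to 0.36) and Spp1 (-0.35 to 0.66), and in PND42 males for Epcam (-0.037 to 0.41), Krt7 (-0.17 to 0.55) and Sox9 (-0.22 to 0.25). It also turned for Sox9 with age in controls (-0.076 to 0.33), for Krt19 (-0.42 to 0.76), Sox9 (-0.89 to 0.046) and Spp1 (-0.26 to 0.76) with age in exposed females, for Spp1 in the difference of exposure effects between ages (-0.49 to 0.52), and between control sexes for Krt7 (-0.34 to 0.023) and Krt19 (-0.40 to 0.22). The cause was not tested. Counts as low as 6 reads for Cldn7, 10 for Krt7 and 14 for Epcam limit the precision of their values.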
